A study of Mus musculus with 6 samples.

Results

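The genes examined are the integrins, the laminins and the other components of the hemidesmosome, taken from the gene table by symbol. The rule took integrin alpha and beta chains, laminin alpha, beta and gamma chains, and Col17a1, Dst, Plec and Cd151. The 40 genes described, of the 23358 entries of the table, comprise 18 integrin alpha chains, 8 integrin beta chains, 10 laminin chains and the 4 named genes. All 40 passed the filter on low counts, and 39 had at least 10 counts in every tumor.

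RNA was sequenced from 6 spontaneous tumors, each from a different female mouse. They are named by mouse number. Osx-Cre;NT3 mice gave tumors 13, 18 and 25, all on the trunk, with latencies of 150, 168 and 115 days. Tumors 27 and 36 were perineal tumors and tumor 29 was a trunk tumor of FSP1-Cre;NT3 mice, with latencies of 101, 52 and 72 days. All 6 mice carried NT3, a conditional allele of the kinase NIK (NF-κB inducing kinase) without the domain that binds TRAF3, on a C57Bl/6J background. The Cre that switched it on differed between the lines. Osx-Cre is a Tet-OFF GFP::Cre fusion driven by the Osterix promoter, from mice of mixed C57Bl/6J and CD1 background, and those mice received doxycycline chow until weaning. FSP1-Cre is driven by the S100a4 promoter and came from an FVB/n background, where no doxycycline control is described. Strain background, latency and, for 2 of the 3 tumors, site therefore differed along with the Cre, and their parts in any difference between the lines cannot be told apart. The same holds for RNA integrity, which by the methods of the study was on average lower in the Osx-Cre;NT3 tumors sequenced, with no value for a single tumor. No tissue without a tumor was analysed here, so that no value below says whether a gene was raised in the tumors.

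Integrins are receptors made of 1 alpha and 1 beta chain that join the cell to its surrounding matrix or to other cells. Laminins are trimers of 1 alpha, 1 beta and 1 gamma chain and are the main adhesive proteins of basement membranes. In the basal layer of skin and other stratified epithelia, integrin α6β4 (Itga6 and Itgb4) binds a laminin with the chains Lama3 and Lamb3 outside the cell and the plakins plectin (Plec) and dystonin (Dst) inside it. Together with the transmembrane collagen XVII (Col17a1) and the tetraspanin CD151 they form the hemidesmosome, the junction that anchors keratin filaments to the basement membrane. The other integrins divide by ligand into receptors for laminin, for collagen, for the RGD sequence of fibronectin and vitronectin, and those of leukocytes.

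The total counts ranged from 51824408 to 163297772. If counts are independent, a count of 0 allows at most 3, which correspond to between 0.0184 and 0.0579 CPM (counts scaled to library size). Every count is even, and if both ends of a pair were counted these limits are too low. Such limits and intervals cover counting error only. Levels within a gene are given as CPM after TMM scaling, and levels of different genes were compared only on RPKM, which is also scaled to gene length. The libraries differed by gene length. Among genes over 10000 bases the median log2 CPM, relative to each gene's mean over the 6 tumors, was -0.79 in tumor 18 and -0.47 in tumor 13, against 0.53 in tumor 25 and from 0.18 to 0.39 in the FSP1-Cre;NT3 tumors. Among genes up to 1000 bases the order was the opposite, with 0.61 in tumor 18 and -0.44 in tumor 25. The members had a median length of 5167.5 bases against 2732 bases among all genes tested, and 38 of the 40 were longer than the latter. Tumor 36 stood apart in its cell type markers, with 4744 CPM summed over 6 simple epithelial markers and 2566 CPM over 6 smooth muscle and myoepithelial markers, against at most 1188 and 571 CPM in the other tumors. The labels name no cell of origin, and the markers of basal keratinocytes summed to 5931 CPM in tumor 36, the least, and to at most 14348 CPM, in tumor 13.

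**Figure D1:**
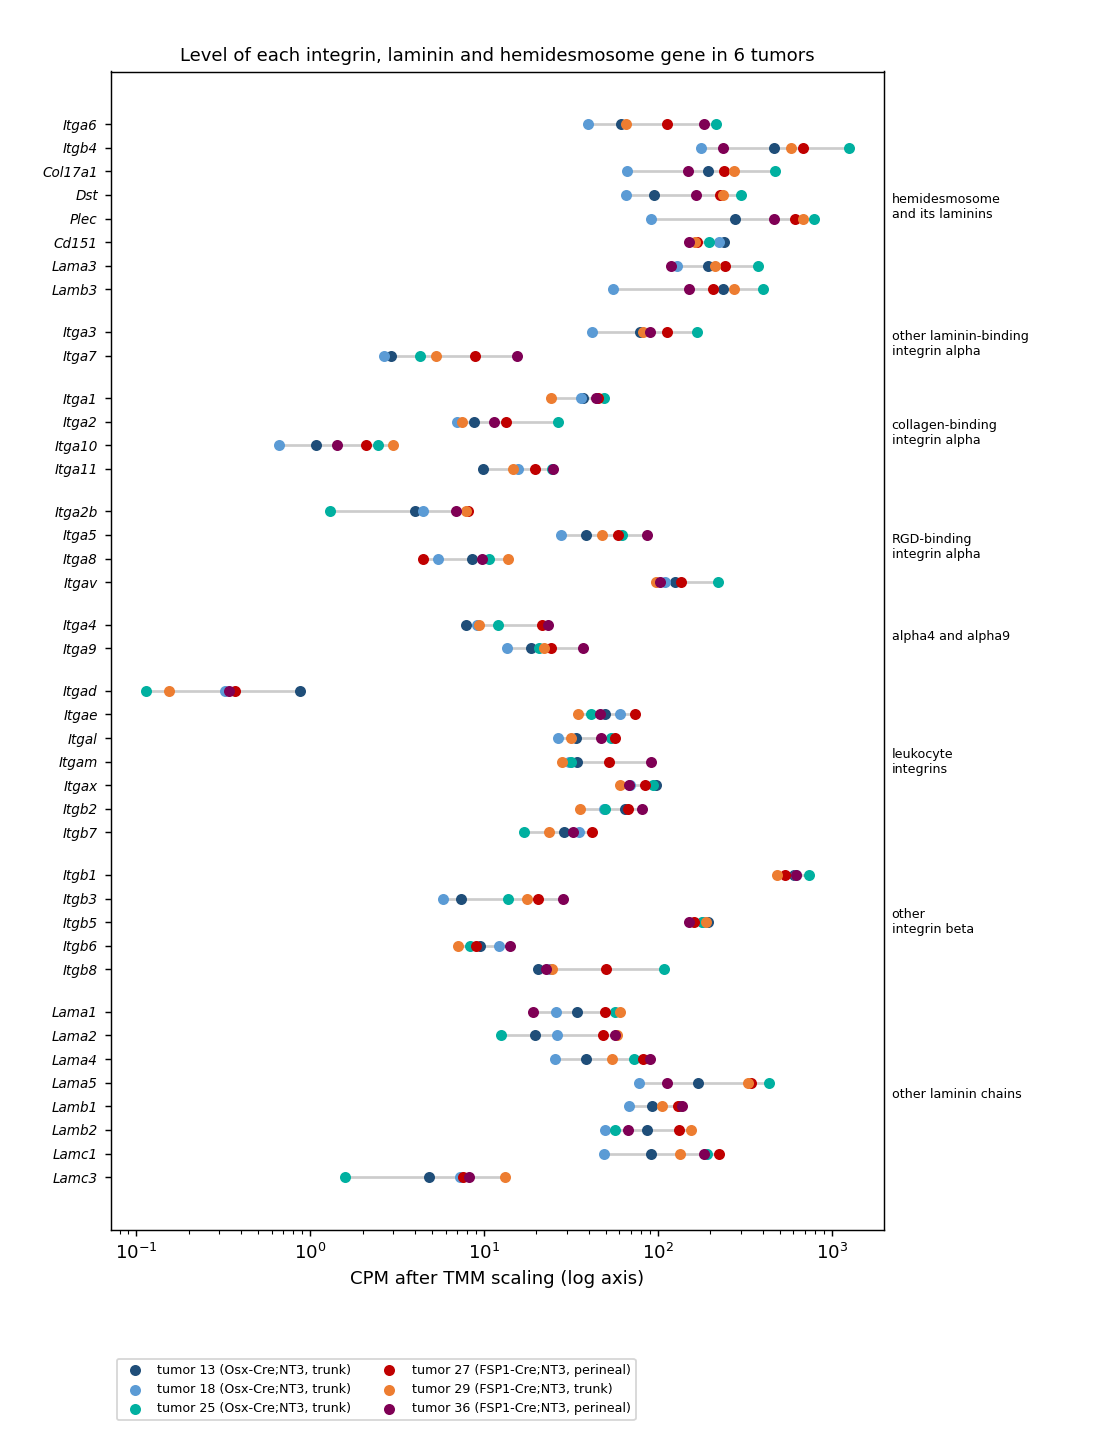
Level of each of the 40 genes in the 6 tumors, as CPM after TMM scaling on a log axis, with 1 point per tumor and a grey line from the lowest to the highest. Genes stand in groups by role, and tumors 18 and 25 mark the ends of the range for most hemidesmosome genes, 6 of which were lowest in tumor 18 and 7 highest in tumor 25.

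By length-scaled level, 6 of the 8 hemidesmosome genes were among the 8 highest of the 40. The highest was Itgb1, the beta chain shared by most matrix integrins, with 115 ± 16.7 RPKM (SD, n = 6) and a range from 92.0 to 143 RPKM. Cd151 followed with 75.3 ± 11.5 RPKM and Itgb4 with 74.8 ± 52.5 RPKM. Itgb1 exceeded Cd151 in 6 of 6 tumors and their ranges did not overlap. Itgb4 lay above Lamb3, the next in order, in 6 of 6 tumors although their ranges overlapped. Every other pair of neighbours in the order had overlapping ranges, so that only the broad order can be read. Lamb3 (43.9 ± 23.5), Itgb5 (42.9 ± 3.07), Col17a1 (34.6 ± 20.9), Plec (22.7 ± 12.7) and Itga6 (21.8 ± 14.2 RPKM) completed the 8 highest. The other two hemidesmosome genes were lower, with Lama3 at rank 10 with 16.6 ± 7.72 RPKM and Dst at rank 25 with 6.36 ± 3.30 RPKM. The lowest were Itga10, a collagen receptor of cartilage, with 0.287 ± 0.146 RPKM and Itgad, a leukocyte integrin, with 0.0722 ± 0.0508 RPKM. Itgad rested on between 8 and 50 counts per tumor.

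Itgb4, the beta chain of the hemidesmosome integrin, lies on chromosome 11 from 115974725 to 116008411 (mm10). It had 467, 177 and 1252 CPM in tumors 13, 18 and 25 and 686, 581 and 238 CPM in tumors 27, 29 and 36. Its lowest and highest levels, 7.07-fold apart, were both in Osx-Cre;NT3 trunk tumors, and the FSP1-Cre;NT3 tumors lay between them. Itga6, its partner, on chromosome 2 from 71787083 to 71856758, had 61.6, 39.5 and 215 CPM in tumors 13, 18 and 25 and 112, 65.1 and 184 CPM in tumors 27, 29 and 36. It was again lowest in tumor 18 and highest in tumor 25, but tumor 36 was second for Itga6 and second from the bottom for Itgb4.

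Col17a1, the transmembrane collagen of the junction, had 195, 66.3 and 469 CPM in tumors 13, 18 and 25 and 239, 273 and 149 CPM in tumors 27, 29 and 36. Plec, the plakin that links β4 to keratin filaments, had 277, 91.0 and 792 CPM in tumors 13, 18 and 25 and 613, 685 and 466 CPM in tumors 27, 29 and 36. Dst, whose epithelial isoform BP230 has the same task, had 94.6, 65.1 and 300 CPM in tumors 13, 18 and 25 and 226, 235 and 166 CPM in tumors 27, 29 and 36. In all 3 genes tumor 25 was highest and tumor 18 lowest, and the values of the lines overlapped. Plec and Dst are also used outside epithelia through other isoforms, which counts per gene do not separate. Plec and the neighbouring Parp10, at up to 53.1 CPM, share 205 exonic bases on the same strand in GENCODE M21.

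Lamb3 and Lama3, the laminin chains of the hemidesmosome, followed a related order. Lamb3 had 237, 55.4 and 402 CPM in tumors 13, 18 and 25 and 207, 273 and 151 CPM in tumors 27, 29 and 36. Lama3 had 195, 128 and 376 CPM in tumors 13, 18 and 25 and 243, 213 and 119 CPM in tumors 27, 29 and 36. Both were highest in tumor 25, but Lamb3 was lowest in tumor 18 and Lama3 in tumor 36. Lamb3 varied more, 7.26-fold between its lowest and highest tumor, against 3.17-fold for Lama3. In tumor 18 Lamb3 was at 1.11 times the RPKM of Lama3, whereas in the other 5 tumors the ratio was between 2.17 and 3.27.

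Cd151, which binds laminin-binding integrins laterally in the membrane, did not share this order. It had 241, 224 and 197 CPM in tumors 13, 18 and 25 and 167, 163 and 150 CPM in tumors 27, 29 and 36. All 3 Osx-Cre;NT3 tumors were above all 3 FSP1-Cre;NT3 tumors, within a total range of 1.61-fold.

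Of these 8 genes, the RefSeq promoter table (GRCm38.p6, 250 bases before to 50 after the start) held windows for Cd151, Col17a1, Dst and Lamb3. The 3 below are printed, because Lamb3 and Col17a1 had among the widest ranges across tumors and Cd151 the narrowest. The start site of each is also the outer end of the gene in the deposited table. Lamb3 is chr1:193301744-193302043 on the plus strand, Col17a1 is chr19:47691993-47692292 on the minus strand and Cd151 is chr7:141467112-141467411 on the plus strand. They are given 5′ to 3′ with the match to the kappaB motif in capitals.
Lamb3: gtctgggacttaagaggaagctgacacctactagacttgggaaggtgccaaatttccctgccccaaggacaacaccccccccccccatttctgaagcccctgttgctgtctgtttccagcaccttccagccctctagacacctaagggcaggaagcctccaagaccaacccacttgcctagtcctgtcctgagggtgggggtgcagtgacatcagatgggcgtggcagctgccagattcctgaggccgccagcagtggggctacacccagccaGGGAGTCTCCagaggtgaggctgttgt
Col17a1: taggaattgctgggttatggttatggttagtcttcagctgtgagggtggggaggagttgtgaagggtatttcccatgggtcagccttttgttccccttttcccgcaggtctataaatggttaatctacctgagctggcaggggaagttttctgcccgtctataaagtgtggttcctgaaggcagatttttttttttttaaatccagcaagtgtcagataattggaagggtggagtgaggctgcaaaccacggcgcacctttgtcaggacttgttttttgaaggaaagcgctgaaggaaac
Cd151: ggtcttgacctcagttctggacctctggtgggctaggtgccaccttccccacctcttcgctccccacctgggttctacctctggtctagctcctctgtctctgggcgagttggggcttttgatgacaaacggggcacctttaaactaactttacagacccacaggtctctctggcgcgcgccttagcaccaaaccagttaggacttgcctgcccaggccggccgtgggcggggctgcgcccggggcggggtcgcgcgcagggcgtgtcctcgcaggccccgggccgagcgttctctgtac
The kappaB motif of NF-κB factors, of 10 letters, and the AP-1 motif TGANTCA were searched on both strands. The kappaB motif was found as GGGAGTCTCC from 23 to 32 bases after the start in Lamb3, and in no window of another member. It occurs in 4.51% of the 32851 windows in the table. A second window for Lamb3 overlaps the first and holds the same copy. The AP-1 motif, found in 7.81% of all windows, was in none of the windows of these 8 genes and in 3 windows of other members, belonging to Itga3, Itga9 and Itgax. In all, 26 of the 40 members had a window. The matches are letters in sequence, and binding was not measured.

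The common order of the hemidesmosome genes was set beside the length gradient of the libraries. As measured, the median log2 CPM of the 8 genes relative to their means was -1.34 in tumor 18 and 1.04 in tumor 25, and between -0.32 and 0.40 in the other 4, against -0.02 to 0.02 among the 16415 genes tested. A smooth trend of log2 CPM over gene length and GC content was then fitted over all genes in each tumor and subtracted. The medians of the 8 genes became -0.56 in tumor 18 and 0.69 in tumor 25, and the gap between a gene's highest and lowest tumor narrowed in 8 of 8, from a median of 2.63 to 1.56 on the log2 scale. The reductions were largest in Plec and Dst, the longest of the 8. The gap of Plec, listed with 17515 bases and 61.3% GC, went from 3.12 to 1.06, and that of Dst, listed with 23242 bases, from 2.21 to 0.59. The gaps of Lamb3 (2.86 to 2.18), Itgb4 (2.82 to 1.97), Col17a1 (2.82 to 1.79) and Itga6 (2.45 to 1.98) were kept in larger part. After the subtraction 6 of the 8 genes remained highest in tumor 25, 4 were lowest in tumor 18 and 4 in tumor 36. Such a subtraction also removes any difference of biological origin that runs along length or GC.

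**Figure D2:**
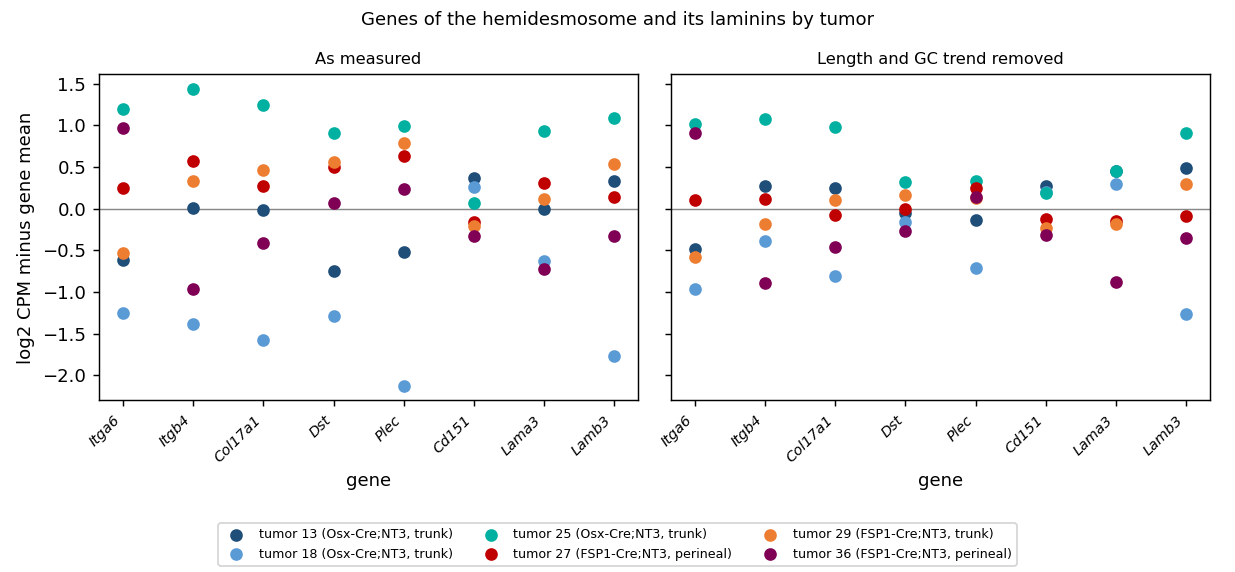
Log2 CPM of the 8 genes of the hemidesmosome and its laminins in each tumor, relative to the gene's mean over the 6 tumors, as measured on the left and after the trend over gene length and GC content was subtracted on the right. Plec and Dst closed from gaps of 3.12 and 2.21 to 1.06 and 0.59, while Lamb3 in tumor 18 moved from -1.77 to -1.27.

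Within the α6β4 pair the proportion of the chains differed in 1 tumor. The ratio of Itga6 to Itgb4 RPKM in the Osx-Cre;NT3 tumors 13, 18 and 25 was 0.193, 0.327 and 0.252. It was 0.239 and 0.164 for the FSP1-Cre;NT3 tumors 27 and 29, and 1.13 for tumor 36. The perineal tumor 27 was thus within the range of the trunk tumors and tumor 36 outside it. Itga6 also pairs with Itgb1, so that its level need not follow Itgb4. Tumor 36 is also the tumor with the high simple epithelial and smooth muscle markers given above, among them Krt8 at 2242 CPM against at most 429 CPM elsewhere and Acta2 at 496 CPM against at most 86.2 CPM. Their part in the ratio was not tested, and the ratio was chosen after its values had been seen.

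**Figure D3:**
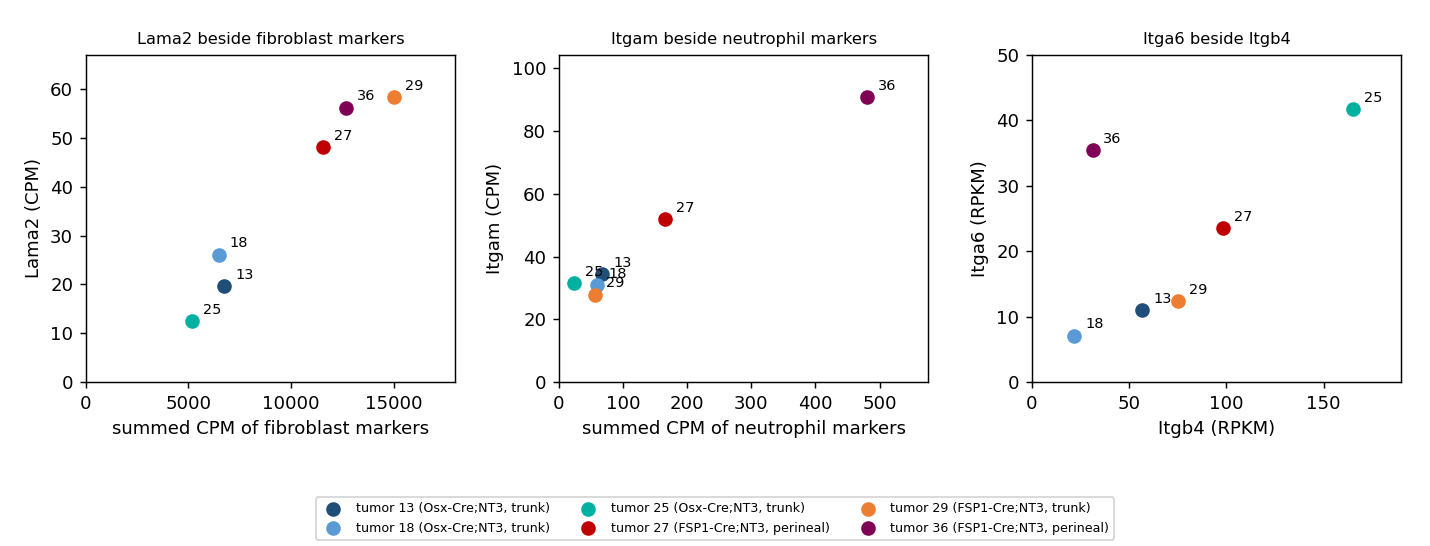
Lama2 against the summed CPM of 6 fibroblast markers, Itgam against the summed CPM of 6 neutrophil markers, and Itga6 against Itgb4 in RPKM, with 1 point per tumor labelled by its number. Tumor 36 lies apart in the right panel, with 35.4 RPKM of Itga6 at 31.2 RPKM of Itgb4.

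Summed over the RPKM of the 5 laminin alpha chains, Lama3 and Lama5, the alpha chain of laminin-511 in mature epithelial and endothelial basement membranes, held shares that were close, of 34.7% ± 7.06 and 33.2% ± 8.42 (SD, n = 6). Lama3 held from 38.7% to 42.8% in Osx-Cre;NT3 and from 26% to 30.5% in FSP1-Cre;NT3 tumors, without overlap. Lama4 held 33.9% in tumor 36 and 12.7% to 17.5% in the other 5. Among the 3 laminin beta chains Lamb3 held 39.9% in tumor 18 and 50.8% to 74.9% in the other 5. Among the integrin beta chains Itgb4 held 23.5%, 10.5% and 40.9% for the Osx-Cre;NT3 tumors 13, 18 and 25, and 31.8%, 31.3% and 13.4% for tumors 27, 29 and 36 of FSP1-Cre;NT3. Tumors 18 and 36 had the lowest shares and the lines overlapped. Itgb1 held 35.4% to 54.3% and was above Itgb4 in every tumor but tumor 25. These shares describe RNA, not assembled trimers or receptors, and RPKM does not remove the length gradient between the libraries.

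**Figure D4:**
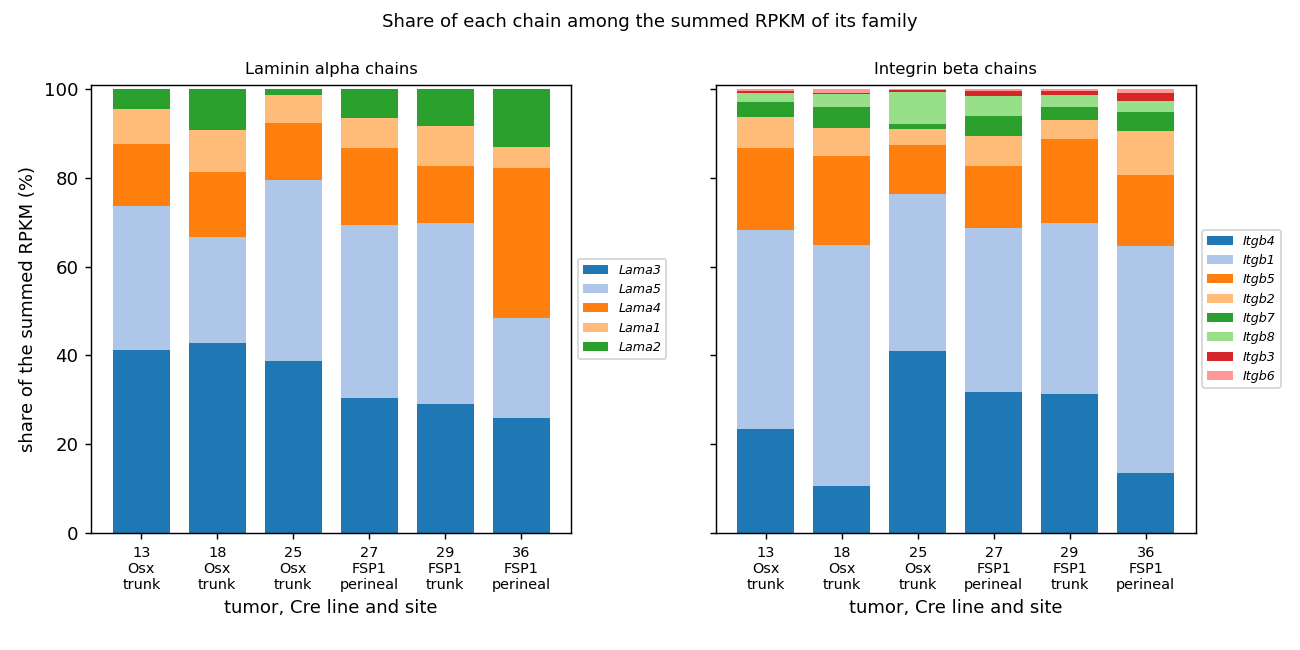
Share of each laminin alpha chain in the summed alpha chain RPKM and of each integrin beta chain in the summed beta chain RPKM, 1 bar per tumor labelled with its Cre line and site. The lowest segment on the left is Lama3, from 26% in tumor 36 to 42.8% in tumor 18, and the lowest segment on the right is Itgb4, from 10.5% in tumor 18 to 40.9% in tumor 25.

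Of the other laminin chains, Lama2 separated the lines most clearly in CPM. Lama2, the alpha chain of laminin-211 made by muscle, Schwann cells and some fibroblasts, lies on chromosome 10 from 26981285 to 27616942. It had 19.6, 26.1 and 12.5 CPM in tumors 13, 18 and 25 and 48.1, 58.3 and 56.2 CPM in tumors 27, 29 and 36. Every FSP1-Cre;NT3 tumor was above every Osx-Cre;NT3 tumor, the trunk tumor 29 included. With the length and GC trend removed the lines overlapped. Tumor 18 then lay at 0.371 and tumor 27 at 0.310 on the log2 scale, relative to the gene's mean. In CPM, markers of fibroblasts moved with Lama2. Pdgfra, Dcn, Lum, Col1a1, Col1a2 and Col3a1 were each higher in every FSP1-Cre;NT3 tumor, 6 of 6, and their sum was 5194 to 6741 CPM in Osx-Cre;NT3 and 11543 to 14998 CPM in FSP1-Cre;NT3 tumors. In bulk RNA a different number of cells of a type and a different amount of RNA per cell cannot be told apart. Skeletal muscle markers summed to 26.8 to 87.2 CPM and 19.3 to 109 CPM in the lines, and Schwann cell markers to 80.5 to 148 CPM and 79.5 to 113 CPM, so that neither sum was higher throughout one line. The part of the fibroblast markers in Lama2 was not tested.

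The remaining chains overlapped between the lines except Lamc3. Lamb2, the beta chain that replaces Lamb1 in mature basement membranes, had 86.7, 49.5 and 56.2 CPM in tumors 13, 18 and 25 and 132, 154 and 67.6 CPM in tumors 27, 29 and 36. Lamc3 had 4.80, 7.25 and 1.58 CPM in tumors 13, 18 and 25 and 7.58, 13.2 and 8.14 CPM in tumors 27, 29 and 36. In CPM the lines did not overlap, but tumors 18 and 27 were close. With the length and GC trend removed, tumor 18 was the highest. Lama4, Lamb1 and Lamc1, the chains of laminin-411, which endothelium makes, were lowest in tumor 18, at 25.7, 67.9 and 49.1 CPM, as was the sum of 6 endothelial markers. That sum was 143 to 297 CPM in Osx-Cre;NT3 and 325 to 446 CPM in FSP1-Cre;NT3 tumors, and 346 to 446 CPM in perineal against 143 to 325 CPM in trunk tumors. It overlapped in neither comparison, 2 of the 6 markers (Pecam1 and Tie1) were higher in every FSP1-Cre;NT3 tumor, and their part in the laminin chains was not tested. Lama5 was lowest in tumor 18, at 78.1 CPM, and highest in tumor 25, at 436 CPM. With the length and GC trend removed, Lama5 was lowest in tumor 36 and Lamb1 in tumor 29, while Lama4 and Lamc1 stayed lowest in tumor 18. Lama1, a chain of embryonic basement membranes, was lowest in tumor 36, at 19.1 CPM, and highest in tumor 29, at 60.7 CPM. Lamc1 was highest in tumor 27, at 224 CPM.

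Among the alpha chains that bind laminin, Itga3, the partner of Itgb1 in skin, was also lowest in tumor 18, with 41.6 CPM, and highest in tumor 25, with 168 CPM. With the length and GC trend removed, Itga3 was lowest in tumor 29 and still highest in tumor 25. Itga7, a laminin receptor best known in skeletal and smooth muscle, was lower, at 0.499 to 3.10 RPKM against 6.50 to 28.1 RPKM for Itga3. In CPM it was also ordered differently. It had 2.90, 2.65 and 4.28 CPM in tumors 13, 18 and 25 and 8.81, 5.28 and 15.4 CPM in tumors 27, 29 and 36. The lines did not overlap, nor did the sites, and tumor 36 was the highest. Smooth muscle and myoepithelial markers, at 281 to 571 CPM in Osx-Cre;NT3 and 377, 341 and 2566 CPM in tumors 27, 29 and 36, were also highest in tumor 36, and their part was not tested.

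By RPKM the collagen receptors were led by Itga1, with 5.29 ± 1.39, followed by Itga11 of fibroblasts with 2.98 ± 1.05, Itga2 with 2.39 ± 1.46 and Itga10 with 0.287 ± 0.146 RPKM. Their levels were 24.1 to 49.1 CPM for Itga1, 9.85 to 24.9 CPM for Itga11, 7.01 to 26.6 CPM for Itga2 and 0.662 to 2.98 CPM for Itga10. All 4 overlapped between lines and between sites. Itga1 and Itga2 are neighbours on chromosome 13, 26039 bases apart, and both were highest in tumor 25.

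Of the RGD-binding chains, Itgav, the partner of Itgb3, Itgb5, Itgb6 and Itgb8, had 97.1 to 221 CPM and Itga5, the fibronectin receptor chain, 27.5 to 86.0 CPM. Itga8 had 4.42 to 13.7 CPM. Itga2b, the platelet fibrinogen receptor chain, had 4.02, 4.44 and 1.30 CPM in tumors 13, 18 and 25 and 8.07, 7.87 and 6.86 CPM in tumors 27, 29 and 36. The lines did not overlap. Its partner Itgb3 had 7.37, 5.78 and 13.7 CPM in tumors 13, 18 and 25 and 20.3, 17.7 and 28.3 CPM in tumors 27, 29 and 36, again without overlap, and the perineal tumors were the highest 2. The sum of 5 platelet and megakaryocyte markers did overlap, at 6.03 to 26.2 CPM in Osx-Cre;NT3 and 16.3 to 35.2 CPM in FSP1-Cre;NT3 tumors. Pf4, which made up most of it, was lowest in tumor 25 at 4.73 CPM, as was Itga2b, and 2 of the 5 markers, Ppbp and Gp9, stayed under 1 CPM in every tumor.

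Among the other beta chains, Itgb5 was the steadiest of the 40 genes in CPM, at 151 to 195 CPM or 1.29-fold from end to end. With the length and GC trend removed it was not, with a log2 gap of 0.72 between its highest and lowest tumor against 0.42 for Itgb1. Itgb1 had 484 to 738 CPM. Itgb6, an activator of TGF-β in epithelia, had 7.08 to 14.0 CPM, highest in tumor 36. Itgb8, with the same task, had 108 CPM in tumor 25, 50.4 CPM in tumor 27 and 20.5 to 24.7 CPM in the other 4 tumors.

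The leukocyte integrins were present in every tumor. Itgb2, the common beta chain, had 64.9, 48.6 and 49.3 CPM in tumors 13, 18 and 25 and 67.3, 35.7 and 81.1 CPM in tumors 27, 29 and 36. Itgam, which encodes CD11b, the alpha chain paired with Itgb2 on neutrophils and macrophages, on chromosome 7 from 128062640 to 128118491, had 34.4, 30.9 and 31.5 CPM in tumors 13, 18 and 25 and 52.1, 27.9 and 90.8 CPM in tumors 27, 29 and 36. In both genes the perineal tumors were above all 4 trunk tumors in CPM, and tumor 29 was the lowest. Neutrophil markers had the same 2 tumors at the top, with a sum of 166 CPM in tumor 27 and 480 CPM in tumor 36 against 23.7 to 67.5 CPM in trunk tumors, and 5 of 6 were higher in both perineal tumors. In the annotation Gm49368, which has no entry in the table, shares 3450 of the 5024 exonic bases of Itgam on the same strand, so that reads counted for Itgam are uncertain. The sum of 7 macrophage markers, of which Lyz2 made 677 to 2274 CPM, was 1524 and 1846 CPM in tumors 27 and 36 and 1466 to 3532 CPM in trunk tumors. Of the 7, Csf1r (187 and 194 CPM against at most 164 CPM) and Mrc1 (114 and 242 CPM against at most 45.9 CPM) were higher in both perineal tumors. The parts of neutrophils and macrophages were not tested.

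Itgax, the CD11c chain of dendritic cells and macrophages, lies 11076 bases from Itgam and had 60.3 to 97.3 CPM, highest in tumor 13, where the macrophage markers were also highest. Itgae, the αE chain of T cells resident in epithelia, had 34.8 to 73.4 CPM, and Itgb7, its partner, 16.9 to 41.9 CPM. Both were highest in tumor 27. Itgal, the LFA-1 chain, had 26.6 to 56.7 CPM. Leukocyte markers (Ptprc, Cd52, Coro1a and Laptm5) summed to 300 to 607 CPM, lowest in tumor 29, the tumor where Itgae, Itgam, Itgax and Itgb2 were also lowest. The sum was highest in tumor 18, where in CPM Itgal was lowest and 0 of the 7 leukocyte integrins were highest. With the length and GC trend removed, Itgae and Itgb7 were highest in tumor 18 and Itgal was lowest in tumor 29.

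Itga4, the VCAM-1 and fibronectin receptor chain of leukocytes, lies on chromosome 2 from 79255426 to 79333114. It had 7.91, 9.10 and 12.0 CPM in tumors 13, 18 and 25 and 21.6, 9.28 and 23.4 CPM in tumors 27, 29 and 36. The perineal tumors were above the 4 trunk tumors, and tumor 29 lay among the Osx-Cre;NT3 tumors. Of the 4 leukocyte markers only Ptprc, the pan-leukocyte CD45 gene, was higher in both perineal tumors, with 113 and 115 CPM in tumors 27 and 36 and 52.8 to 91.6 CPM in trunk tumors. Their sum was 507 and 508 CPM in the perineal and 300 to 607 CPM in the trunk tumors. The part of leukocytes was not tested. Part of Itga4, 1124 exonic bases, overlaps Cerkl on the opposite strand, and whether strand was used in counting is not given in the sources used here. Cerkl had at most 0.53 CPM. Itga9, which binds tenascin-C, had 18.7, 13.5 and 20.7 CPM in tumors 13, 18 and 25 and 24.1, 22.0 and 37.2 CPM in tumors 27, 29 and 36, without overlap of lines or sites. With the length and GC trend removed, tumor 13 (0.11 on the log2 scale) was above tumors 27 and 29 (-0.184 and -0.19).

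The first comparison asked whether the genes differed between tumors driven by the 2 Cre lines. Tested with the quasi-likelihood method of edgeR, adjusted by Benjamini-Hochberg over 16415 genes, 0 of the 40 members and 0% of all genes had an adjusted p under 0.05. At an unadjusted p under 0.05 there were 6 members, against 10.8% of all genes. They were Lama2, Itga7, Itgb3, Itga2b and Lamb2, higher in FSP1-Cre;NT3, and Cd151, higher in Osx-Cre;NT3. The smallest p was that of Lama2, at a log2 fold change of 1.48 ± 0.30 (SE), which edgeR gave an adjusted p of 0.426. Itga7 had 1.59 ± 0.47, Itgb3 1.30 ± 0.39, Itga2b 1.23 ± 0.49, Lamb2 0.88 ± 0.36 and Cd151 -0.46 ± 0.17, each with an edgeR adjusted p of 0.458.

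The DESeq2 test called 2 members, Lama2 with an adjusted p of 0.00238 and Itga7 with 0.0445, both higher in FSP1-Cre;NT3, against 2.14% of all genes called higher and 2.56% called in either direction. Leaving out tumor 13 left 0 members called by DESeq2, beside 236 of 16887 genes. Leaving out tumor 18, 27 or 36 left 1, beside 499 of 16717, 460 of 16792 and 196 of 16641 genes. Leaving out tumor 29 gave 4, beside 731 of 16752 genes. Without tumor 25 there were 11 members, beside 21.7% of all genes, among them Dst and Plec, higher in FSP1-Cre;NT3. Over 15 alternatives the log2 fold change of Lama2 ranged from 0.93, with the length and GC trend removed, to 1.75, without tumor 18. With the trend removed Lamb2 had 0.23, and without tumor 25 Itga2b had 0.80. Itga7 had 0.69 both with site as a covariate and in trunk tumors only. In the 4 trunk tumors alone, where tumor 29 is the only FSP1-Cre;NT3 tumor and is assumed to vary as the others do, edgeR called 0 members.

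Over all members the median log2 fold change was 0.19 and 26 of 40 were above 0, beside a median of 0.01 over all genes. With the trend removed these were -0.08 and 19, beside -0.03. The 8 hemidesmosome genes had a median of -0.14, and 3 of them were above 0. Plec had 0.61 ± 0.69, Dst 0.45 ± 0.56 and Itga6 0.19 ± 0.68. Itgb4 had -0.33 ± 0.72, Lama3 -0.28 ± 0.45, Col17a1 -0.14 ± 0.65 and Lamb3 -0.14 ± 0.64, and edgeR adjusted p lay between 0.725 and 0.937 for these 7. As measured, no difference apart from that of Cd151 exceeded 1 SE, and the widths do not show that the lines were alike. With the trend removed the 8 had a median of -0.38 and 2 were above 0, beside -0.03 over all genes. Lama3 then had -0.77 ± 0.21 and Itgb4 -0.70 ± 0.42, with edgeR adjusted p of 0.382 and 0.473. Col17a1 (-0.434 ± 0.427) and Plec (0.28 ± 0.27) were then also past 1 SE. The 8 laminin chains other than Lama3 and Lamb3 had a median of 0.71 and 8 of 8 were above 0, and with the trend removed 0.22 and 6 of 8. In CPM, 6 members (Lama2, Itga7, Itgb3, Itga2b, Itga9 and Lamc3) were higher in every FSP1-Cre;NT3 tumor, beside 9.02% of all genes, and Cd151 alone was lower, beside 8.02%. With the trend removed, Lama2, Itga9 and Lamc3 overlapped between the lines, while Itga7, Itgb3, Itga2b and Cd151 did not. Lama3, Itgb1, Itgb5, Itgav and Itgax, which overlapped in CPM, were then lower in every FSP1-Cre;NT3 tumor. The share of all genes without overlap was not counted with the trend removed.

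**Figure D5:**
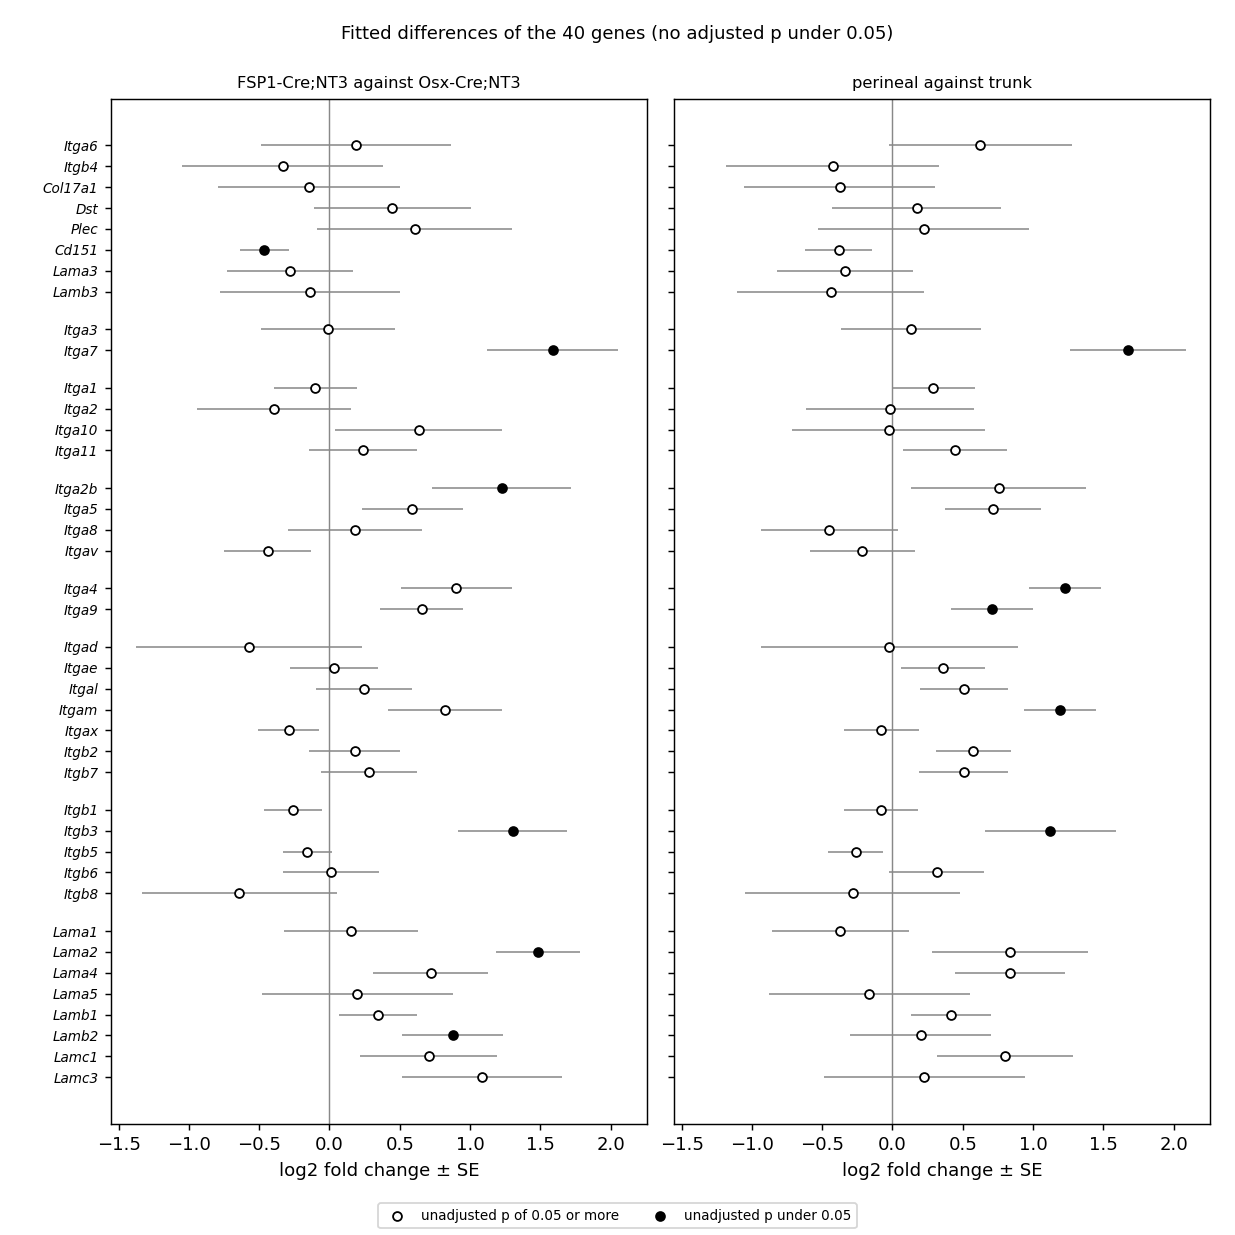
Log2 fold change with its standard error from edgeR for each member in both comparisons, with filled points at an unadjusted p under 0.05. The 6 filled points on the left and 5 on the right lie beside 10.8% and 10.5% of all genes, and no member had an adjusted p under 0.05.

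The second comparison set the 2 perineal tumors against the 4 trunk tumors. It shares its samples with the comparison of lines, since both perineal tumors are FSP1-Cre;NT3. By edgeR 0 of the 40 members and 0% of 16971 genes had an adjusted p under 0.05, and 5 members had an unadjusted p under 0.05, against 10.5% of all genes. All 5 were higher in perineal tumors. The log2 fold changes were 1.23 ± 0.26 for Itga4 and 1.19 ± 0.26 for Itgam, both with an edgeR adjusted p of 0.263, 1.68 ± 0.41 for Itga7 with 0.272, 0.71 ± 0.29 for Itga9 with 0.464, and 1.12 ± 0.47 for Itgb3 with 0.472. Itgb2 followed with 0.58 ± 0.27 and an edgeR adjusted p of 0.509.

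DESeq2 called Itga4 with an adjusted p of 0.00169 and Itgam and Itga7 with 0.0117 each, all higher in perineal tumors, beside 3.34% of all genes called higher and 3.56% in either direction. Without tumor 36, which leaves 1 perineal tumor, edgeR gave log2 fold changes of 1.17 for Itga4, 0.74 for Itgam and 1.22 for Itga7. The DESeq2 calls of these genes were not kept without tumor 36 and were kept without tumor 27. As 1 perineal tumor gives no spread of its own, neither fit decides whether the calls rest on tumor 36. Without tumor 13 DESeq2 called 1 member, beside 318 of 16887 genes. Without tumor 25 it called 4, Itga6 among them at 1.40 ± 0.39 (log2, adjusted p = 0.0162), beside 3.98% of all genes. With 1 perineal tumor left out, edgeR takes the spread from the trunk tumors alone and the remaining perineal tumor is assumed to vary as they do. Tumor 36 against the trunk tumors then gave 567 genes, 3.2% of those tested, with Itgam among them at 1.51 ± 0.26 and an edgeR adjusted p of 0.0362, and tumor 27 against them gave 0, with Itgam at 0.74. The 2 perineal tumors were not tested against each other. With the line as a covariate, so that only FSP1-Cre;NT3 tumors carry the difference, 0 members were called, and Itgb3 had 0.46, Itgb2 1.05 and Cd151 -0.043. Itga9 had 0.40 with the trend removed and 0.36 without tumor 36.

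The median over members was 0.22 with 24 of 40 above 0, beside -0.02 over all genes, and 0.03 with 21 above 0 when the trend was removed. The 8 hemidesmosome genes had a median of -0.36. Itga6 had 0.63 ± 0.65, Plec 0.22 ± 0.75 and Dst 0.17 ± 0.60. Lamb3 had -0.44 ± 0.66, Itgb4 -0.43 ± 0.76, Cd151 -0.38 ± 0.24, Col17a1 -0.38 ± 0.68 and Lama3 -0.34 ± 0.48. The edgeR adjusted p of the 8 lay from 0.576 to 0.931. With the trend removed their median was -0.43 and 2 were above 0, beside -0.03 over all genes. Lama3 then had -0.76 ± 0.30 with an edgeR adjusted p of 0.351. In CPM, 7 members were above every trunk tumor in both perineal tumors (Itga4, Itgam, Itga7, Itga9, Itgb2, Itgb3 and Lama4), beside 10.2% of all genes, and Itgb5 alone was below, beside 9.44%. With the trend removed, Itga9 and Itgb2 overlapped between the sites, while Itga4, Itgam, Itga7, Itgb3, Lama4 and Itgb5 did not. Of members that overlapped in CPM, Itga2b and Lamc1 were then higher and Lama1 lower in both perineal tumors.

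The partners of these receptors were read from lists of genes. Of 30 focal adhesion genes, which link integrins to actin, 29 were tested and edgeR called 0 in either comparison. At an unadjusted p under 0.05 there were 8 between the lines, 7 of them higher in FSP1-Cre;NT3, and 7 between the sites, all higher in perineal tumors, beside 10.8% and 10.5% of all genes. Tns1, a tensin, had 26.8, 14.9 and 52.4 CPM in tumors 13, 18 and 25 and 80.6, 66.9 and 179 CPM in tumors 27, 29 and 36, at 1.80 ± 0.56 with an edgeR adjusted p of 0.458. Flna, which crosslinks actin, was likewise lowest in tumor 18, with 324 CPM, and highest in tumor 25, with 1346 CPM. The length and GC trend was not removed from these levels. DESeq2 called 3 higher in perineal tumors, Tns4, Kank1 and Lims2, beside 3.34% of all genes called higher, and 0 between the lines. These 3 were high in tumor 36 alone, at 75.6 CPM for Tns4 against at most 4.60 CPM elsewhere, 34.8 against at most 9.45 CPM for Kank1 and 12.8 against at most 3.41 CPM for Lims2.

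Of 21 other basement membrane genes, all tested, edgeR and DESeq2 called 0 in both comparisons, beside 2.56% and 3.56% of all genes by DESeq2. By edgeR 5 and 1 had an unadjusted p under 0.05 for the line and the site, beside 10.8% and 10.5% of all genes. These were all higher in FSP1-Cre;NT3 or perineal tumors. Between the lines, 18 of 21 were above 0 with a median of 0.51, beside 0.01 over all genes, and with the trend removed 12 of 21 with 0.07, beside -0.03. The sums of fibroblast and endothelial markers given above were also higher in every FSP1-Cre;NT3 tumor, and their part was not tested. Col7a1, the anchoring fibril collagen below the hemidesmosome, had 233, 73.4 and 181 CPM in tumors 13, 18 and 25 and 397, 530 and 258 CPM in tumors 27, 29 and 36, all higher in FSP1-Cre;NT3 tumors at 1.28 ± 0.47 with an edgeR adjusted p of 0.458. Col15a1, of vascular basement membranes, had 1.65 ± 0.52 with 0.458. Col4a1 and Col4a2, the network collagens, were lowest in tumor 18, at 284 and 120 CPM, and highest in tumor 25, at 1158 and 799 CPM. These levels still hold the length and GC trend.

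Of 22 other integrin ligands, 19 were tested for the line and 20 for the site, and edgeR called 0, with 6 and 2 at an unadjusted p under 0.05, beside 10.8% and 10.5% of all genes. These were all higher in FSP1-Cre;NT3 or perineal tumors. DESeq2 called Col1a1, Col1a2 and Col3a1, which are also among the fibroblast markers, higher in FSP1-Cre;NT3, beside 2.14% of all genes called higher. It called Fn1, the ligand of α5β1 and α4β1, and Fbn1 higher in perineal tumors, beside 3.34% of all genes called higher. Fn1 had 514 and 588 CPM in tumors 27 and 36 and 139 to 277 CPM in trunk tumors, or 1.44 ± 0.30 on the log2 scale with an edgeR adjusted p of 0.263. Of 8 tetraspanins other than Cd151, edgeR called 0 in either comparison. At an unadjusted p under 0.05 there were 0 and 1, beside 10.8% and 10.5% of all genes. DESeq2 called Tspan8 higher in perineal tumors, beside 3.34% of all genes called higher. That call rested on tumor 36, with 187 CPM against at most 3.05 CPM in the other 5. Cd63 and Cd9 had 434 to 870 and 448 to 758 CPM.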

How the data were processed

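RNA of 6 tumors, 1 per female mouse, was sequenced from mRNA libraries. According to the methods of the study, the authors used HISAT2 on trimmed reads against mm10 and featureCounts for the counts per gene, whereas the processing notes of the submitters name TopHat2 2.0.6 and HTSeq, so the tools used are uncertain. The gene annotation and strandedness are not given in the sources used here. The authors deposited raw counts for 23358 entries, 43 with a repeated symbol, kept apart. Every count is even, as when both ends of a pair are counted. The authors also deposited RPKM values and the gene lengths behind them.

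The number of per-sample columns left unused was 0. Counts were tested as deposited with edgeR 4.0.16 (filterByExpr, TMM, glmQLFit and glmQLFTest) in R 4.3.3, with Benjamini-Hochberg adjustment over all genes tested, for 3 FSP1-Cre;NT3 against 3 Osx-Cre;NT3 and 2 perineal against 4 trunk tumors. DESeq2 1.42.0 was the alternative. P-values measure the spread between these tumors. Log2 CPM used a prior count of 2. The length and GC trend, from GENCODE M21 transcripts on the same build, was a spline with 4 degrees of freedom for each, an alternative chosen after seeing the data. Each test had been run on simulated counts beforehand. The simulated counts behind the shares below held no gradient over length or GC, unlike these libraries, so that the shares need not hold for them. Of genes changed 4-fold, edgeR recovered 52.8% between the lines and 57.1% between the sites, and called 1 and 4 unchanged genes. DESeq2 recovered 62.8% and 68.2%, but called 40 unchanged beside 125 changed genes and 75 beside 135. Fold changes are given for members past an adjusted p of 0.05, the 6 with the smallest p in each comparison and the hemidesmosome genes, and of each list the 3 highest in CPM and the 3 with the smallest p could be named. Of 205 list genes 203 were found, 2 under an older symbol. The members, lists and tests were chosen with earlier results of these data known. Promoter sequences are from RefSeq on GRCm38.p6, and 26 of 40 members had one. Of 41 genes matching the rule, 1 is not reported here. Totals ranged from 51824408 to 163297772 counts, so that the number of tumors, not depth, limits precision. Alternatives were library sizes alone, upper-quartile scaling, other filters, halved counts, a covariate, trunk tumors only and each tumor left out.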

Additional observations from a re-analysis of the deposited data

Results flagged for a closer look

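The log2 ratio of Itga6 to Itgb4 RPKM in tumor 36 lay far from the other tumors, with a gap to the nearest of 0.642 of the whole range, above Dixon's 95% critical value for 6 values. The ratio was 1.13 in tumor 36 and 0.327 in the nearest, tumor 18. It was picked after its values had been seen. The rate of about 1 in 20 passing by chance holds for values named in advance and does not apply to it. Among the 40 members searched one by one on log2 CPM, 0 passed. The closest were Itga2b, with tumor 25 the lowest at 1.30 CPM and a gap of 0.617, and Itgav, with tumor 25 the highest at 221 CPM and a gap of 0.587.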

How the results depend on the processing

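With 3 tumors a line and 2 perineal tumors, the tumors limit these results more than depth does. No paired analysis was possible because the labels give the lines no shared replicate numbers. DESeq2 called 2 members and 420 genes between the lines and 3 members and 605 genes between the sites, where edgeR called 0 of each. Leaving out 1 tumor, edgeR called 0 members and 0 genes between the lines, and between 0 and 1 members and between 0 and 567 genes between the sites, the 567 without tumor 27. DESeq2 called between 0 and 11 members between the lines, beside 196 to 3650 of all genes. Between the sites, with 1 trunk tumor left out, it called between 1 and 4, beside 318 to 731 genes. Library sizes alone moved the median over all genes between the lines from 0.01 to 0.13. Other scalings, filters, halved counts, the covariates, trunk tumors only and the removed trend called 0 in each. The median share of Itgb4 among integrin beta chains was 27.4%, and 38.0% from CPM, within 1 SD.

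Among single members, none with a named difference past an unadjusted p of 0.05 turned its direction. Directions turned in hemidesmosome genes whose differences were under their SE, and the cause was not tested. Between the lines, with site as a covariate and in trunk tumors only, Col17a1 had 0.17 and 0.17, Itga6 -0.70 and -0.70 and Lamb3 0.24 and 0.24. Dst had -0.074 with the trend removed. With 1 tumor left out, Col17a1 ranged from -0.59 to 0.72, Itga6 from -0.26 to 1.21, Itgb4 from -0.78 to 0.61, Lama3 from -0.58 to 0.21 and Lamb3 from -0.61 to 0.50. Between the sites, with the line as a covariate, Dst had -0.26 and Plec -0.35, and Dst had -0.23 with the trend removed. With 1 tumor left out, Col17a1 ranged from -0.76 to 0.10, Dst from -0.10 to 0.56, Itgb4 from -1.39 to 0.16, Lama3 from -0.96 to 0.0897 and Plec from -0.12 to 0.60.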
